A study of Rattus norvegicus with 22 samples.

Results

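The liver genes that respond to growth hormone were followed on 22 Agilent two-colour rat arrays, 1 array per rat. They were taken by name as Ghr, Stat5b, Socs2, Igfals, Cyp2c11, Cyp2c12, Cyp2c13, Cyp2c22 and Cyp2c23, and every probe that carried one of these names and was not a control was kept. This gave 11 probes for 9 genes, on 37 spots, of 30367 probes and 26276 gene names on the array. All 11 probes entered the test, among 19434 probes in all. The rats were male Sprague-Dawley rats. CD 3 (5 rats) and CD 14 (6 rats) were fed with control diet for 3 or 14 months, and BD 3 (5 rats) and BD 14 (6 rats) were fed for the same times with the BASE-diet, which is enriched with biologically active substances. In the BASE-diet 6% salmon fat took the place of lard, and 8% linden extract, 8% pumpkin puree and 1% probiotic bacteria were added. Each rat's RNA was labelled with Cy5 and set against Cy3-labelled RNA from the livers of healthy rats aged 10 weeks, the common reference of all groups. The labels do not give the sex or the number of the reference rats, which took no part in the feeding. A log2 ratio of 0 therefore means the same signal as in that reference.

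Growth hormone acts on hepatocytes through its receptor, the product of Ghr, which activates the kinase JAK2 and then the transcription factors STAT5a and STAT5b. STAT5b induces its own brakes, among them Socs2 and Cish, as well as the endocrine output of the liver, including Igf1 and Igfals, the acid-labile subunit that keeps IGF-1 in the circulation. In rats the pituitary of males releases growth hormone in pulses and that of females releases it almost continuously. The liver reads this difference, so that Cyp2c11 and Cyp2c13, which encode steroid hydroxylases, are characteristic of males and Cyp2c12, which encodes a steroid sulfate hydroxylase, is characteristic of females. Cyp2c22 and Cyp2c23 belong to the same cytochrome P450 subfamily; the enzyme of Cyp2c23 epoxidises arachidonic acid. RNA was taken from whole liver, in which fewer cells of a type and less RNA per cell cannot be told apart.

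The stretches just upstream of the transcript starts of Cyp2c11, Cyp2c12 and Cyp2c13 are shown, since their ratios were compared from rat to rat. They run 5′ to 3′ from 100 to 1 base before the start, from RefSeq on build GRCr8, and capitals mark ATTGATT, the core letters of a site for HNF6, the product of Onecut1.
Cyp2c11: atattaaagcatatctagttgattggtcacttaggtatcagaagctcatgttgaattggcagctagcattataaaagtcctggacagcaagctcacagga
Cyp2c13: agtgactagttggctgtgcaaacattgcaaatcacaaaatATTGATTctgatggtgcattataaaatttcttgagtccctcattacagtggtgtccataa
Cyp2c12: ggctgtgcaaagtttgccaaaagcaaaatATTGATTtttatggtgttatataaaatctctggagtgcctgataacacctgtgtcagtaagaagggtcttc
The stretches lie at chr1:246175116-246175215 on the plus strand for Cyp2c11, chr1:248787189-248787288 on the minus strand for Cyp2c13 and chr1:248677035-248677134 on the minus strand for Cyp2c12. The promoter table held windows from 250 bases before to 50 after the start for 8 of the 9 genes, with no entry for Socs2. ATTGATT or its reverse complement AATCAAT was found in 2 of these windows, once in Cyp2c12 at position -71 and once in Cyp2c13 at position -60, and in 2.59% of all 33469 windows. The STAT5 motif TTCNNNGAA, the same on both strands, was in none of the 8 windows and in 8.87% of all windows. A match of letters is a description of the window and not a binding site.

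The probes for 2 genes whose values stood out, Cyp2c22 by diet and Socs2 against the reference, are shown as well, as the 60 bases spotted on the array, with coordinates in build rn4 as the files give them.
Cyp2c22: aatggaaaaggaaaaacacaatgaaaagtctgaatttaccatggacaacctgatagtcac
Socs2: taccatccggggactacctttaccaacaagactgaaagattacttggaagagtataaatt
The Cyp2c13 probe was placed at chrUn:17358228-17358287, on sequence not assigned to a chromosome. The Cyp2c22 probe lay at chr1:245310265-245311185 on the minus strand, a span longer than the probe itself, and so crossed an intron. The Socs2 probe lay at chr7:32605827-32605886 on the minus strand. Of the remaining genes, Cyp2c11 was probed at chr1:243320626-243320685, Cyp2c23 at chr1:249228597-249228656, Igfals at chr10:14130378-14130437 and Stat5b at chr10:89722209-89722268. Ghr had 3 probes, and the one with the highest Cy5 signal, at chr2:52524230-52524289, stands for the gene below.

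The arrays differed in quality. Between 52.4% and 93.6% of the spots were well above background in Cy5, lowest in CD 3 rat 4, and 4.44% of the spots of CD 3 rat 1 and 4.05% of those of CD 14 rat 1 were non-uniform, against at most 0.063% elsewhere. All members were well above background in both channels on 22 arrays, apart from Stat5b, which missed this in Cy5 on CD 3 rat 4 and in Cy3 on BD 14 rat 2, and none was saturated. Months and slides were largely tied: all 6 BD 14 rats were on slide 3 with 2 CD 14 rats, slide 4 held 3 CD 3 rats and nothing else, and 3-month and 14-month rats shared slide 2 (3 BD 3, 3 CD 14) and slide 5 (1 CD 3, 1 CD 14). Of 6 hepatocyte markers, 6 were measured and 0 had an unadjusted p below the threshold with time, while none of 4 pancreas markers passed the detection filter. Of 5 Kupffer cell markers, 4 were higher after 14 months at an unadjusted p under 0.05, against 9.16% of all probes, and 0 after adjustment (lowest adjusted p = 0.157, limma). The mean log2 ratio of this Kupffer list ran from -3.10 to -0.65 in CD 3, from -2.27 to -0.43 in BD 3, from -1.34 to -0.13 in CD 14 and from -1.88 to -0.17 in BD 14, with 5 of 5 markers detected. The ranges of the groups overlapped, with slide as a block the time difference was positive for 1 of 5 markers (median -0.27), and the part of these cells in the results below was not tested. With time, unadjusted, 1 of 3 bile duct, 1 of 3 endothelial, 1 of 2 lymphocyte and 0 of 5 stellate cell markers were also higher, and with diet 1 of 2 red cell markers was lower.

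**Figure D1:**
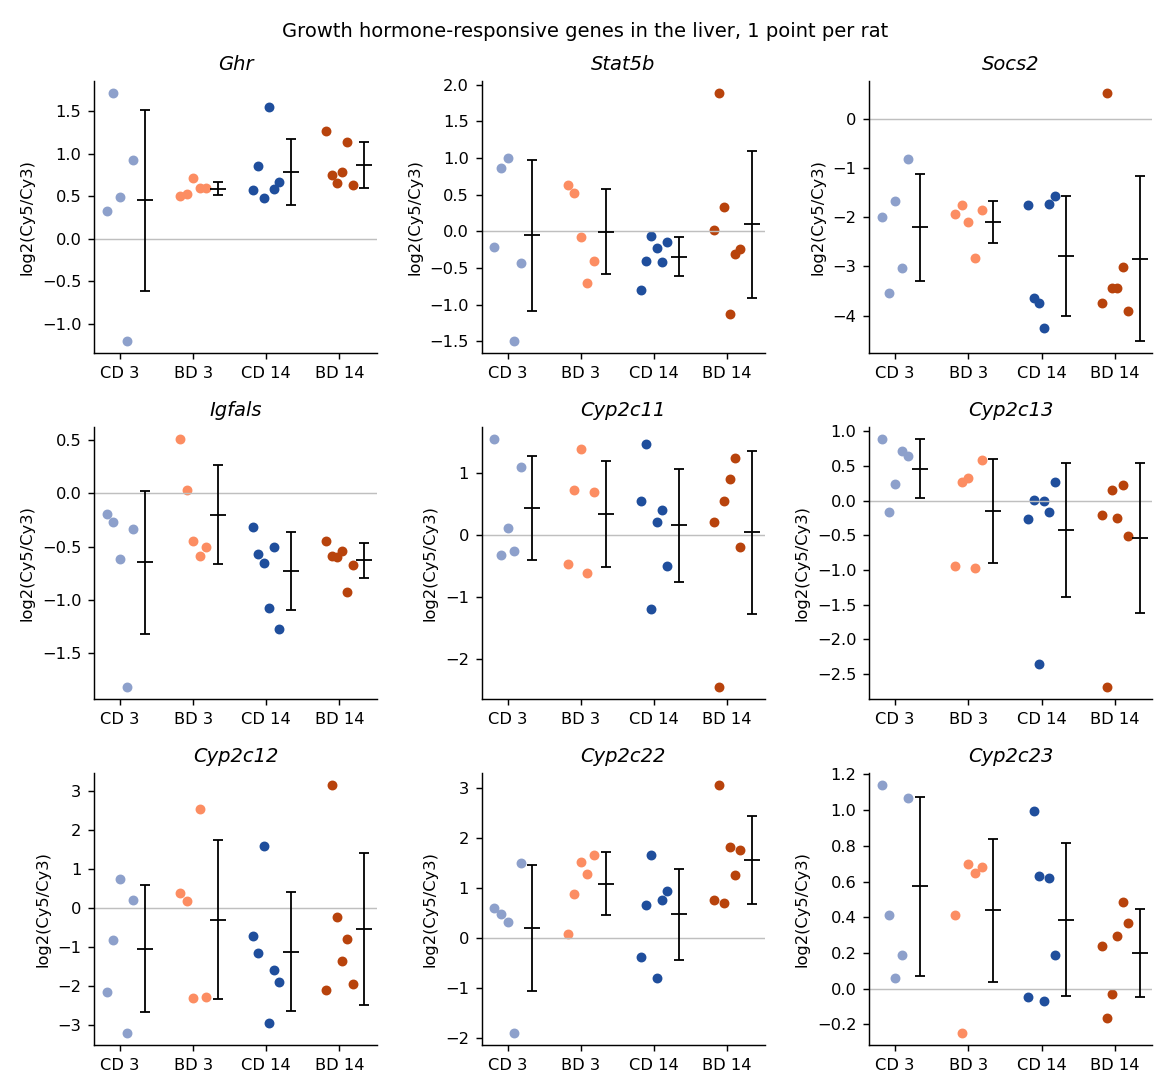
Log2 ratio of Cy5 (rat) to Cy3 (common reference) of the main probe of each of the 9 genes, with 1 point per rat and, to the right of the points, the mean and SD of CD 3, BD 3 (n = 5 each), CD 14 and BD 14 (n = 6 each). The groups overlap for every gene, and Cyp2c12 has the widest spread, from -3.19 to 3.15.

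Diet and time left the 9 genes without a detectable difference. In limma's test over all 19434 probes, 0 of the 11 probes passed an adjusted p of 0.05 in any of 8 comparisons, and in each of the 4 pairs of groups compared the values of all 11 probes overlapped. Over all probes the groups did not overlap for 0.701% in BD 3 against CD 3, 0.773% in BD 14 against CD 14, 0.501% in CD 14 against CD 3 and, for the months within BASE-diet, 2.26%. At an unadjusted p under 0.05, 1 of 11 probes, that of Cyp2c22, was higher with BASE-diet averaged over the times, against 7.19% of all probes (5.53% higher, 1.66% lower) and 0.00515% after adjustment. The same probe was higher in BD 14 than in CD 14, against 4.6% of all probes (3.79% higher) and 0% after adjustment. For BD 3 against CD 3 no member passed even unadjusted, against 7.11% of all probes, and 0% of all probes passed after adjustment. The corresponding shares were 10.1% for CD 14 against CD 3, 7.44% for BD 14 against BD 3 and 4.8% for the interaction of diet and time, each with 0% after adjustment and 0 of 11 members. For 14 against 3 months averaged over the diets, 13.6% of all probes passed unadjusted and 0.221% adjusted, and again 0 of 11 members. The F test over the 4 groups called 10.5% of all probes unadjusted, 0.0257% adjusted and 0 members. The one-way F test with Tukey's HSD that the methods name also called 0 members, both before and after adjustment. The share of all probes under that test is not given, so this count cannot be set against it. In addition 66 exact permutation tests of single probes were run, and their p-values below are unadjusted.

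**Figure D2:**
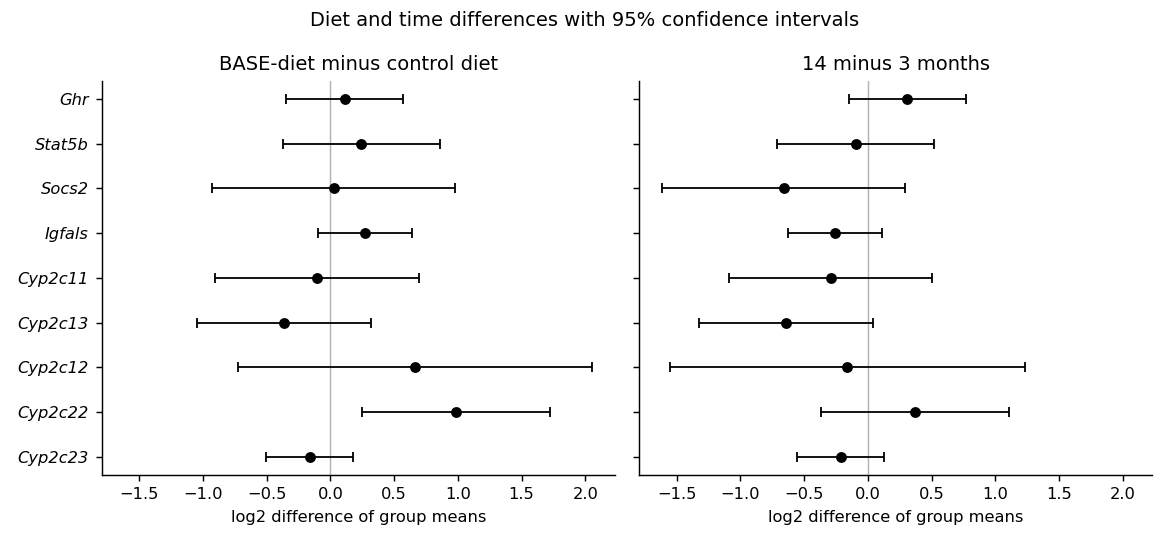
Log2 differences of the main probe of each gene, BASE-diet minus control diet averaged over the times on the left and 14 minus 3 months averaged over the diets on the right, with 95% confidence intervals (1.96 of limma's standard errors). The interval of Cyp2c22 on the left, 0.24 to 1.72, is the one that leaves out 0, and its adjusted p of 0.613 does not pass.

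Ghr encodes the growth hormone receptor. Its log2 ratios in CD 3 were 0.33, 1.71, 0.49, -1.21 and 0.93, and in BD 3 they were 0.51, 0.53, 0.71, 0.60 and 0.60. In CD 14 they ran from 0.48 to 1.55 with a median of 0.63, and in BD 14 from 0.63 to 1.26 with a median of 0.77. The receptor probe was above the reference on 21 of 22 arrays, CD 3 rat 4 being the exception, and the groups overlapped. BD 14 lay 0.28 ± 0.33 (SE) above BD 3, with an exact two-sided permutation p of 0.035 but an adjusted p of 0.861 in limma. This difference was -0.27 with the slide as a block and 0.08 in Cy5 alone. The other 2 Ghr probes, which lie at chr2:52496746-52496805 and chr2:52497358-52497417, had medians of -0.29 and -0.16 over the 22 arrays, so that the probes of the receptor disagreed in sign against the reference. In the diet and time contrasts all 3 probes had small positive differences, from 0.09 to 0.17 for BASE-diet and from 0.14 to 0.31 for 14 months, with adjusted p from 0.597 to 0.925. The direction was not stable: for the main probe the diet difference was -0.08 and the time difference -0.16 with slide as a block, and the diet difference was -0.10 without CD 3 rat 4.

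Stat5b encodes the transcription factor that carries the signal to the nucleus, and its probe gave Cy5 signals from 24.8 to 171. Its log2 ratios were -0.22, 0.87, 1.01, -1.49 and -0.43 in CD 3 and 0.64, 0.52, -0.08, -0.70 and -0.40 in BD 3. They ran from -0.80 to -0.06 in CD 14 with a median of -0.31, and from -1.12 to 1.88 in BD 14 with a median of -0.11. All 6 CD 14 rats were below the reference, within the range of the other groups. The 1.88 of BD 14 rat 2 came with a Cy3 signal of 40.5 against a median of 112 over the arrays and a Cy5 signal of 149, and since this Cy3 signal was not well above background the ratio is uncertain. The time difference was -0.10 ± 0.32 and the diet difference 0.24 ± 0.32 (adjusted p = 0.934 and 0.844, limma). Without BD 14 rat 2 these were -0.27 and 0.06, with slide as a block 0.41 and 0.52, and in Cy5 alone -0.05 and 0.62. BD 3 against CD 3 gave 0.05 (adjusted p = 0.991, limma), but 0.82 ± 0.27 in Cy5 alone (adjusted p = 0.127). With slide as a block it was 0.62, and without CD 3 rat 4 it was -0.31. The ratio of CD 3 rat 4 is uncertain too, since its Cy5 signal of 24.8 was not well above background.

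Socs2, which encodes a feedback inhibitor of the receptor, was the member farthest below the reference. Its log2 ratios were -1.99, -3.53, -1.68, -3.03 and -0.81 in CD 3 and -1.94, -1.75, -2.10, -2.82 and -1.86 in BD 3. In CD 14 they ran from -4.25 to -1.57 with a median of -2.69, and in BD 14 from -3.91 to 0.52 with a median of -3.45. Socs2 was below the reference on 21 of 22 arrays, and the exception was BD 14 rat 2. The groups did not differ beyond their spread: the log2 difference was -0.66 ± 0.49 (SE) for 14 against 3 months (adjusted p = 0.582) and 0.03 ± 0.49 for BASE-diet (adjusted p = 0.990). Without BD 14 rat 2 these were -0.995 and -0.31. BD 14 differed from BD 3 by -0.75 ± 0.69 (adjusted p = 0.813, limma), and by -1.42 without this rat. The next highest BD 14 ratio was -3.01 and the lowest of BD 3 -2.82, so the overlap of these groups rested on 1 rat. The lowest adjusted p of this difference over all settings was 0.261 (limma).

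**Figure D3:**
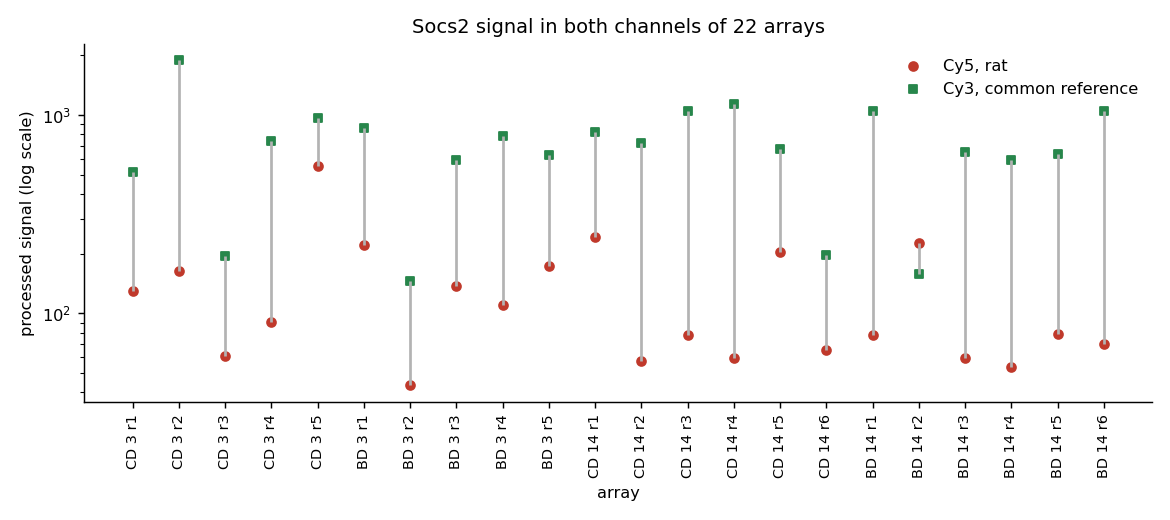
Processed signal of the Socs2 probe on a log scale in Cy5 (circles, each rat) and Cy3 (squares, common reference) on each of the 22 arrays, joined by a line. Cy5 lies below Cy3 everywhere except in BD 14 rat 2, and the reference signal itself runs from 146 to 1885.

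The reference channel of Socs2 was not constant. Its Cy3 signal ran from 146 to 1885, 12.9-fold, although the labels name the same reference RNA for every array, and its Cy5 signal ran from 43.4 to 553, 12.7-fold. After quantile normalization the Cy3 signal of Socs2 had an SD of 1.00 on the log2 scale over the 22 arrays, above that of 94.4% of the tested probes, whose median was 0.46. In BD 14 rat 2 the Cy3 signal was 159 and the Cy5 signal 227. Among the other main probes the reference signal spanned 3.74-fold for Cyp2c13 to 7.55-fold for Cyp2c12, before normalization between arrays. The reference channel also deviated together on arrays of 1 slide: over all tested probes the deviations of normalized Cy3 from its mean had a median r of 0.25 for 50 pairs of arrays on the same slide and of -0.20 for 181 pairs on different slides. How much of the spread of the ratios came from the reference was not tested, and values from the Cy5 channel alone are given for some members beside the ratios.

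Igfals, the acid-labile subunit gene, had a median log2 ratio of -0.55 and was below the reference on 20 of 22 arrays. Its log2 ratios were -0.20, -0.27, -0.61, -1.81 and -0.33 in CD 3 and 0.51, 0.03, -0.45, -0.58 and -0.50 in BD 3. The CD 14 rats ran from -1.27 to -0.32 with a median of -0.61, and the BD 14 rats from -0.92 to -0.45 with a median of -0.59. The rats above the reference were BD 3 rats 1 and 2. BD 14 differed from BD 3 by -0.43 ± 0.27 with an exact two-sided permutation p of 0.026 and an adjusted p of 0.743, by -0.06 with the slide as a block and by -0.76 in Cy5 alone. The diet difference averaged over the times was 0.27 ± 0.19 (adjusted p = 0.739), 0.06 with the slide as a block, 0.09 in Cy5 alone and 0.13 without CD 3 rat 4. Without BD 3 rat 1 the difference between BD 14 and BD 3 was -0.25.

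Cyp2c11, the main male-specific P450 gene of rat liver, gave Cy5 signals from 6727 to 96757. Its log2 ratios in CD 3 were 1.55, -0.32, 0.11, -0.25 and 1.11, and in BD 3 they were -0.46, 0.73, 1.39, -0.61 and 0.70. In CD 14 they ran from -1.19 to 1.47 with a median of 0.31, and in BD 14 from -2.45 to 1.24 with a median of 0.38. The lowest rats were BD 14 rat 2 and CD 14 rat 3, and the rest of their groups lay in the range of the 3-month groups. The diet difference was -0.10 ± 0.41 and the time difference -0.29 ± 0.41 (adjusted p = 0.951 and 0.801, limma). Without BD 14 rat 2 these were 0.15 and -0.04, and with slide as a block -0.84 and -1.05.

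Cyp2c13, the second male-specific member, had log2 ratios of 0.88, -0.17, 0.24, 0.71 and 0.64 in CD 3 and of -0.94, 0.27, 0.32, -0.97 and 0.58 in BD 3. In CD 14 they ran from -2.36 to 0.27 with a median of -0.08, and in BD 14 from -2.68 to 0.22 with a median of -0.23. The means were 0.46 ± 0.42 (SD, n = 5) in CD 3, -0.15 ± 0.75 (n = 5) in BD 3, -0.42 ± 0.97 (n = 6) in CD 14 and -0.54 ± 1.08 (n = 6) in BD 14. The low ends of both 14-month groups were the same 2 rats as for Cyp2c11. CD 14 differed from CD 3 by -0.88 ± 0.49 (exact two-sided permutation p = 0.052, adjusted p = 0.571), and 14 months from 3 months by -0.64 ± 0.35 (exact two-sided permutation p = 0.096, adjusted p = 0.429). Leaving out CD 14 rat 3 brought the first of these to -0.49, and leaving out BD 14 rat 2 brought the second to -0.43, while with slide as a block they were -1.19 and -1.11.

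Cyp2c12, the female-specific member, was the most variable of the 9 genes. Its log2 ratios in CD 3 were -2.15, -0.82, 0.73, -3.19 and 0.20, and in BD 3 they were 0.39, 0.18, -2.31, 2.54 and -2.28. The CD 14 rats ran from -2.95 to 1.59 with a median of -1.37, and the BD 14 rats from -2.10 to 3.15 with a median of -1.07. Most rats lay below the reference, 15 of 22, and the 3 highest came from 3 groups, namely BD 14 rat 2, BD 3 rat 4 and CD 14 rat 3. In these rats the Cy5 signal of the probe was, in that order, 10359, 5783 and 16480, against a median of 869 over all arrays and a lowest value of 82.3 in CD 3 rat 4, a range of 200-fold in signals not scaled between arrays and of 98.7-fold after quantile normalization. The within-group SD of its log2 ratio was 1.79, above that of 99.7% of the tested probes, and in the quantile-normalized Cy5 channel alone it was 1.62, above 98.8%. Over all tested probes the median within-group SD was 0.53. The diet difference was 0.66 ± 0.71 and the time difference -0.16 ± 0.71 (adjusted p = 0.812 and 0.952), with 95% intervals of -0.73 to 2.05 and -1.55 to 1.23. Without BD 14 rat 2 these differences were 0.29 and -0.53, with slide as a block 1.16 and 0.93, and in Cy5 alone 1.04 and 0.13. With array weights the diet difference was -0.0049.

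From rat to rat Cyp2c11 and Cyp2c13 varied together, and Cyp2c12 varied against Cyp2c13. Over the 22 arrays Cyp2c11 and Cyp2c13 had a Pearson r of 0.80 (permutation p = 2e-05) and a Spearman rho of 0.61 (permutation p = 0.0032). Cyp2c13 and Cyp2c12 had an r of -0.71 (permutation p = 0.00041) and a rho of -0.52 (permutation p = 0.014). Cyp2c11 and Cyp2c12 had an r of -0.56 (permutation p = 0.0073) and a rho of -0.38 (permutation p = 0.084). These are 3 of 36 pairs of members computed, and with Benjamini-Hochberg adjustment over the 36 pairs the p of r was 0.00072, 0.0074 and 0.087, and that of rho was 0.12, 0.26 and 0.62. The ranks alone thus did not pass after adjustment. Probes of the Cyp2c family may share sequence, and what this adds to these r was not tested.

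**Figure D4:**
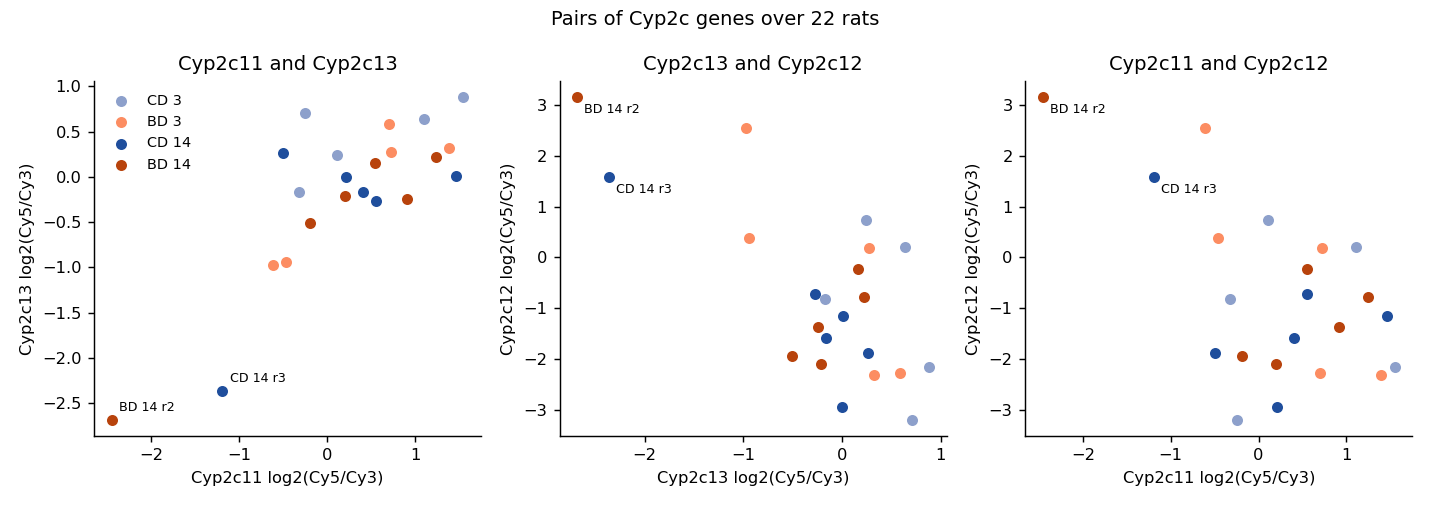
Log2 ratios of Cyp2c11, Cyp2c13 and Cyp2c12 plotted against each other, with 1 point per rat coloured by group and BD 14 rat 2 and CD 14 rat 3 named. Cyp2c11 and Cyp2c13 fall along a rising line (r = 0.80), and the 2 named rats, lowest in both, are among the 3 rats highest in Cyp2c12.

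BD 14 rat 2 and CD 14 rat 3 lay farthest from the median of both male-specific genes. Without them, over 20 rats, r was 0.54 for Cyp2c11 with Cyp2c13 (permutation p = 0.013), -0.47 for Cyp2c13 with Cyp2c12 (permutation p = 0.038) and -0.20 for Cyp2c11 with Cyp2c12 (permutation p = 0.39). The last relation rested on these 2 rats. Deviations from the group means gave r of 0.82, -0.78 and -0.57, so the pattern was present within the groups. Relations between the group means were not tested. Within the slides that held at least 6 arrays, Cyp2c11 and Cyp2c13 had an r of 0.89 (6 arrays) and 0.96 (8 arrays), and Cyp2c13 and Cyp2c12 one of -0.84 and -0.81. Each of these slides held 1 of the 2 rats, CD 14 rat 3 and BD 14 rat 2, and on the slide of 8 arrays the r without BD 14 rat 2 was 0.66 and, turned in sign, 0.48. In Cy5 alone the 3 values were 0.75, -0.80 and -0.55, and in the Cy3 reference alone they were 0.65, 0.11 and 0.25. The points share the reference channel, in which Cyp2c11 and Cyp2c13 also varied together while Cyp2c12 did not oppose them. Set against 16483 genes, 4 had a lower r with Cyp2c12 than Cyp2c13 had, which is 0.0243%. From the other side, 28 had a lower r with Cyp2c13 than Cyp2c12 had (0.170%). A higher r with Cyp2c11 than that of Cyp2c13 was found for 11 genes, which is 0.0667%. For Cyp2c11 and Cyp2c12, 140 genes had a lower r with Cyp2c12 (0.849%) and 416 a lower r with Cyp2c11 (2.52%).

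BD 14 rat 2 departed in several members at once. Its Cyp2c11 and Cyp2c13 ratios were -2.45 and -2.68, and its Cyp2c12, Cyp2c22 and Socs2 ratios were 3.15, 3.05 and 0.52, each the lowest or highest of all 22 arrays. Its Stat5b ratio of 1.88, also the highest, is uncertain for its dim reference signal, and its Cyp2c23 ratio of -0.16 was the lowest of its group. Ghr, at 0.75, and Igfals, at -0.58, were within their group. In this rat 74.3% of the spots were well above background in Cy5, and 0.00852% were non-uniform. All rats were male according to the methods, and no label gives the sex of single animals.

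Cyp2c22, whose product hydroxylates retinoic acid, was the member with the largest averaged diet difference for its error in limma's fit of the ratios. Its log2 ratios in CD 3 were 0.60, 0.48, 0.32, -1.89 and 1.49, and in BD 3 they were 0.08, 0.88, 1.51, 1.27 and 1.66. The CD 14 rats ran from -0.81 to 1.66 with a median of 0.71, and the BD 14 rats from 0.69 to 3.05 with a median of 1.50. All 11 rats on BASE-diet were above the reference, against 8 of 11 on control diet, and the groups overlapped at both times. The means were 0.20 ± 1.26 (SD, n = 5) in CD 3, 1.08 ± 0.63 (n = 5) in BD 3, 0.47 ± 0.91 (n = 6) in CD 14 and 1.55 ± 0.87 (n = 6) in BD 14.

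Averaged over the times, Cyp2c22 was 0.98 ± 0.38 higher with BASE-diet on the log2 scale (unadjusted p = 0.016, exact two-sided permutation p = 0.018, adjusted p = 0.613). The differences were 0.88 ± 0.56 at 3 months (adjusted p = 0.807; 0.36 without CD 3 rat 4) and 1.08 ± 0.51 at 14 months (exact two-sided permutation p = 0.063, adjusted p = 0.952), and the interaction was 0.20 ± 0.75 (adjusted p = 0.999). Slide mattered for the difference at 3 months and for the interaction. The interaction was 1.55 with slide as a block, 0.73 in Cy5 alone and -0.10 without BD 14 rat 2. With slide as a block the difference was 0.02 at 3 months, 1.57 at 14 months and 0.80 averaged, and the slides with both diets gave -0.12 at 3 months (2 BD 3 rats against 1 CD 3 rat) and 1.57 at 14 months (6 BD 14 rats against 2 CD 14 rats). In the Cy5 channel alone the 3 differences were 0.32, 1.05 and 0.69, and without BD 14 rat 2 the averaged difference was 0.83. Its lowest value, in CD 3 rat 4, belonged to the array with the fewest spots above background.

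Cyp2c23, the arachidonic acid epoxygenase gene, was the steadiest P450 member. Its log2 ratios were 1.14, 0.41, 0.06, 0.19 and 1.07 in CD 3 and 0.41, -0.25, 0.70, 0.65 and 0.68 in BD 3, and they ran from -0.07 to 0.99 in CD 14 (median 0.40) and from -0.16 to 0.49 in BD 14 (median 0.27). It was above the reference on 17 of 22 arrays, with groups that overlapped. Its within-group SD was 0.40, above that of 29.5% of the tested probes, and 0.18 in Cy5 alone, above 2.19%. The diet difference was -0.16 ± 0.17 and the time difference -0.21 ± 0.17 (adjusted p = 0.814 and 0.627, limma). With slide as a block these were -0.51 and -0.60, and without BD 3 rat 2 they were -0.07 and -0.30.

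Other genes of the pathway were taken from lists. Of 13 genes of growth hormone signalling and feedback 12 were tested, and 0 passed the adjusted test with time or with diet. At an unadjusted p under 0.05, 2 were higher after 14 months, against 9.16% of all probes, and 2 were lower, against 4.46%. Jak2, the receptor's kinase, was 1 of those higher (0.53 ± 0.21). Those lower were Stat5a, the close relative of Stat5b (-0.58 ± 0.21), and Cish, a STAT5-induced inhibitor (-0.78 ± 0.33), which was named after its value was seen. The adjusted p of these named genes ran from 0.239 to 0.312. The list's median time difference was 0.10, with 7 of 12 positive, against a median of 0.06 and 58.3% positive over all probes, and with slide as a block the median was -0.24, with 2 of 12 positive. Igf1, the hormone gene that the pathway drives, was chosen after its value was seen and differed by -0.12 ± 0.13 with time and by 0.09 ± 0.13 with diet. With diet 0 genes of the list passed unadjusted, against 7.19% of all probes, and the median was -0.06 with 4 of 12 positive, against 57.2% of all probes.

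Among transcription factors of sex-biased liver genes, 8 of 10 were tested and 0 passed the adjusted test. Hnf4a, a master regulator of hepatocyte genes, was 0.52 ± 0.21 higher with BASE-diet (unadjusted p = 0.025, adjusted p = 0.641), and it was 1 of 8 that passed unadjusted, against 5.53% of all probes higher. Cebpa differed by 0.59 ± 0.30 and Foxa2 by -0.76 ± 0.45. With time 0 of 8 passed unadjusted, and the lowest p belonged to Rxra (-0.32 ± 0.18). Onecut1, which encodes HNF6 and was picked after its value was seen, had an r of 0.58 with Cyp2c12 over the 22 arrays. Its r was -0.34 with Cyp2c13 and -0.38 with Cyp2c11. The 0.58 was the highest of the 8 factors with Cyp2c12, whose median was 0.17 with 5 of 8 positive, against 58.1% of 16483 genes. With Cyp2c13 the 8 factors ran from -0.42 to 0.47 and with Cyp2c11 from -0.55 to 0.44. For Onecut1 the dependence on single rats was as follows. The Onecut1 ratio was highest in BD 14 rat 2, at 2.47 against a median of -1.09. Without this rat its r with Cyp2c12, Cyp2c13 and Cyp2c11 were 0.43, -0.02 and -0.08. Onecut1 differed by -0.48 ± 0.58 with diet and by 0.10 ± 0.58 with time (adjusted p = 0.835 and 0.963).

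None of the male-biased liver genes beyond the members passed the adjusted test with time. The median over rats of the list's mean log2 ratio was 0.51 in CD 3 against -0.05 in CD 14, and with BASE-diet it was -0.01 in BD 3 against 0.12 in BD 14. Of 15 listed genes 14 were tested, 2 had positive time differences, against 58.3% of all probes, and the median of the list was -0.45. With slide as a block 2 of 14 were positive, against 57.8% of all probes, and the median was -1.12. At an unadjusted p under 0.05, 3 were lower, against 4.46% of all probes, and 1 was higher, against 9.16%. The genes of the major urinary proteins and an odorant carrier led, namely Mup4 (-1.45 ± 0.48), Mup5 (-1.22 ± 0.45) and Obp3 (-0.83 ± 0.29), with adjusted p of 0.212, 0.249 and 0.235. These genes are close relatives, so their probes may read each other's RNA. The list was lowest in CD 14 rat 3, BD 14 rat 2 and BD 14 rat 6, as given below. Serpina3n, a protease inhibitor of the acute phase, was the 1 that was higher (0.49 ± 0.23, adjusted p = 0.357). With diet 0 of 14 passed unadjusted, and the lowest p belonged to Cyp2a2 (0.42 ± 0.20), Hsd11b1 (-0.55 ± 0.27) and Hsd3b5 (-0.65 ± 0.48).

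Of 11 female-biased genes 9 were tested, 7 had positive time differences, against 58.3% of all probes, and the median was 0.75, with 0 past the adjusted test. With slide as a block 6 of 9 were positive and the median was 0.40. At an unadjusted p under 0.05, where 9.16% of all probes were higher and 4.46% lower, the sulfotransferase gene Sult2a2 was higher after 14 months (1.08 ± 0.45, adjusted p = 0.304) and Cyp3a9 was lower (-1.70 ± 0.49, adjusted p = 0.150). Srd5a1, a steroid 5α-reductase gene, differed by 0.75 ± 0.37 (adjusted p = 0.379). With diet, Cyp2a1, a steroid hydroxylase gene, was 0.48 ± 0.18 higher (unadjusted p = 0.014, adjusted p = 0.609), 1 of 9 against 5.53% of all probes. Of 10 other Cyp2c genes 3 were tested and 0 passed unadjusted, Cyp2c6v1 with 0.36 ± 0.26 for time and 0.40 ± 0.26 for diet having the lowest p.

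**Figure D5:**
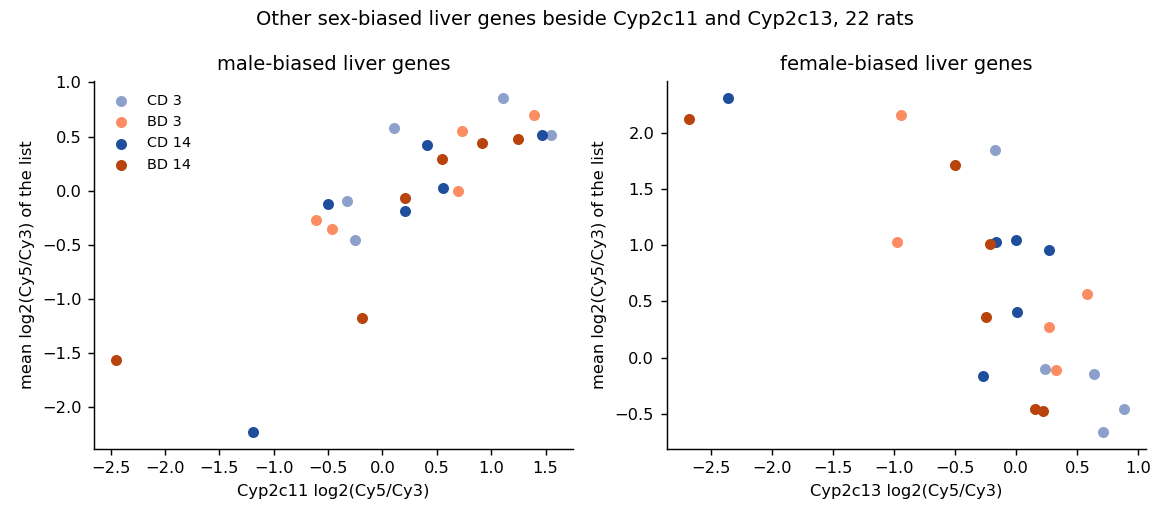
Mean log2 ratio of 14 other male-biased genes against Cyp2c11 on the left and of 9 female-biased genes against Cyp2c13 on the right, with 1 point per rat coloured by group. The male-biased mean is higher where Cyp2c11 is higher (r = 0.83), and the female-biased mean is lower where Cyp2c13 is higher (r = -0.77), in rats of all groups.

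The male-biased list was high or low with the male-specific members from rat to rat, and the female-biased list the other way round. The mean of the 14 male-biased genes had a Pearson r of 0.83 and a Spearman rho of 0.83 with Cyp2c11 over the 22 arrays, and 0.81 and 0.62 with Cyp2c13. The mean of the 9 female-biased genes had an r of -0.73 and a rho of -0.66 with Cyp2c11, and -0.77 and -0.73 with Cyp2c13. These are descriptions over 22 arrays that share a reference channel. Without BD 14 rat 2 and CD 14 rat 3 the r with Cyp2c11 was 0.74 for the male-biased and -0.62 for the female-biased mean, and with Cyp2c13 it was 0.48 and -0.71. In Cy5 alone the r with Cyp2c11 was 0.86 and -0.68.

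Gene by gene, 13 of 14 male-biased genes had a positive r with Cyp2c13 (median 0.70) and 8 of 9 female-biased genes a negative one (median -0.54), whereas 40.8% of 16483 genes had a positive r with it (median -0.08). With Cyp2c12 the values were smaller, with an r of 0.38 and a rho of 0.27 with the female-biased mean, and an r of -0.36 and a rho of -0.07 with the male-biased mean. Without BD 14 rat 2 and CD 14 rat 3 these r were 0.10 and 0.18, so they rested on those 2 rats. In Cy5 alone they were 0.57 and -0.61 over the 22 arrays. Gene by gene, 8 of 9 female-biased and 2 of 14 male-biased genes had a positive r with Cyp2c12, against 58.1% of 16483 genes.

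The list means spread widely within each group. The male-biased mean was lowest in CD 14 rat 3 at -2.23 and in BD 14 rat 2 at -1.57, followed by BD 14 rat 6 at -1.18, and highest in CD 3 rat 5 at 0.86. The female-biased mean was highest in CD 14 rat 3 at 2.31, BD 3 rat 1 at 2.16 and BD 14 rat 2 at 2.13, and lowest in CD 3 rat 4 at -0.66. BD 3 rat 4, whose Cyp2c12 ratio was 2.54, had a male-biased mean of -0.27 and a female-biased mean of 1.03.

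The genes most like each member over the 22 arrays, among 16475 other genes, included several P450 genes for the male-specific pair. For Cyp2c13 they were Cyp3a23/3a1 (r = 0.90), Omd (0.86), Nim1 (0.85), Slc22a8 (0.85) and Tcfcp2 (0.84), and for Cyp2c11 they were Cyp3a73 (0.87), Cyp2c6v2 (0.85), Naa60 (0.84), Enpp2 (0.83) and Cyp4a2 (0.82). Probes of the Cyp2c and Cyp3a families may share sequence, so these likenesses are uncertain. Cyp2c12 had weaker likenesses, Steap2 (0.76) being the highest with a gene name, and Cyp2c22 was most like Ces2c (0.84), Dbt (0.82) and Klf6 (0.82). Socs2 was most like Crip2 (0.86), Eif6 (0.84) and Xbp1 (0.82). Ghr was most like Sppl2a (0.94) and Idh1 (0.91), Igfals like Yif1b (0.86), Stat5b like Aass (0.86), and Cyp2c23 like A1i3 (0.71) and Cyp4f1 (0.70).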

How the data were processed

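Liver RNA of 22 rats was hybridised on two-colour arrays. Per the labels, every rat was in Cy5 and the common reference in Cy3. The methods instead name the dyes by diet, and the labels were followed. The authors deposited the Agilent Feature Extraction output of each array, version 10.7.3.1 in the submitters' processing notes and 10.10.1.1 in the file headers. The deposited intensity values are processed signals, background-subtracted and dye-normalized by Lowess, and the deposited log10 values are the ratio of Cy5 to Cy3. The deposited table of log2 values holds none of the probes described and was not used.

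Ratios were converted to log2. Controls and spots marked as non-uniform were dropped, and spots of a probe were averaged. To be tested, a probe needed a share of 0.5 or more of its spots well above background in Cy5 in each rat of 1 group or more. limma 3.58.1 (R 4.3.3) was fitted to the 4 groups, with Benjamini-Hochberg adjustment over 19434 probes and a threshold of 0.05. The number of arrays limits the precision. Exact permutation tests, two-sided, compared single probes, and correlations were tested by 100000 permutations (Python 3.11.15, scipy 1.17.1). P-values measure the spread between samples that the labels give as separate rats. Slides came from the file headers. The fit was tested on simulated data. Of the gene lists and probe sequences, 2 items are not reported here.

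The genes described and the gene lists were chosen with earlier results of these data known. Every probe of the 9 genes is reported, the one with the highest mean Cy5 signal standing for its gene. From each list up to 3 genes with the lowest p for time and for diet are named, and up to 5 like genes per member. Alternatives concerned background correction, Cy5 alone, centring, filters, outlier spots, array weights, slide or rat number as a block, the methods' F test and each array left out. Leaving out both arrays with many non-uniform spots, the recomputed correlations and the slide block for the gene lists were added after seeing the data.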

Additional observations from a re-analysis of the deposited data

Results flagged for a closer look

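In 7 of 44 combinations of probe and group, the highest or lowest rat stood apart from the rest of its group by Dixon's criterion, which by chance picks about 1 in 20 groups. BD 14 rat 2 accounted for 3 of these: its Cyp2c12 log2 ratio was 3.15 (next highest -0.23), its Cyp2c13 ratio -2.68 (next lowest -0.50) and its Socs2 ratio 0.52 (next highest -3.01). CD 14 rat 3 stood apart in Cyp2c13 at -2.36 (next lowest -0.27). CD 14 rat 4 stood apart in the main Ghr probe at 1.55 (next highest 0.86). CD 3 rat 4, whose array had the lowest share of spots above background, stood apart in another Ghr probe at -1.76 (next lowest -0.21) and in Igfals at -1.81 (next lowest -0.61).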

How the results depend on the processing

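The count of called member probes was 0 in all 289 recomputed counts, over 15 alternative settings and the omission of each of 22 rats, where a setting allowed the comparison. The lowest adjusted p of a member in limma was 0.127, for Stat5b in BD 3 against CD 3 in the Cy5 channel alone. Unadjusted, the count in 1 comparison was at most 2 probes in any setting. The shares of all probes in those settings are not given, so the count of 2 cannot be set against them. Of 63 differences of main probes none was called, and 38 changed sign in at least 1 setting, in 154 of 2234 values. The averaged diet difference of Cyp2c22 stayed positive in all 35 values, from 0.60 to 0.98 over the settings and from 0.72 to 1.14 with 1 rat left out, with adjusted p from 0.239 to 0.964. The time difference of Socs2 ran from -1.07 with array weights to -0.38 with normexp and loess. Same-numbered rats did not deviate together, with correlations from -0.27 to 0.29, so the numbers do not pair the rats. With the replicate block the count of called member probes was again 0 and the diet difference of Cyp2c22 0.98. With the slide block the median difference of all probes in BD 3 against CD 3 was 0.15, against 0.03 without it. The deposited log2 values could not serve as an alternative, since that table holds none of these probes. Signal near background limits Stat5b. The Cy5 signal of Socs2 was also low, with a median of 84.6 over the arrays against 98.6 for Stat5b. It was well above background on all 22 arrays, but the low signal limits the Socs2 ratios too.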
